A study of Mus musculus with 14 samples.

Results

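Collagen chain genes were followed in lung tissue of BALB/c mice that carried a mammary tumour or received PBS. They were taken as every gene whose probe sets on an Affymetrix mouse array carried a single symbol made of Col, a number, the letter a and a number, such as Col1a1. This gave 42 genes with 82 probe sets, out of 18194 genes with 34958 probe sets that carried 1 symbol. Where a gene had several probe sets, as 27 of the 42 did, the set brightest on average, as log2(intensity + 16) over all arrays, stood for it. By textbook class, 11 genes encode fibrillar chains, 6 encode chains of type IV collagen in basement membranes and 25 encode other chains. The genes were taken by symbol and not by a difference between groups, though the set was chosen with earlier results of these data known.

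The arrays comprised 4 lungs labelled Metastatic, from mice given 4T1 breast carcinoma cells, 5 labelled Non-metastatic, from mice given 67NR breast carcinoma cells, and 5 labelled Normal, from mice given PBS without cells. Both tumour lines were placed in the fourth mammary fat pad, and lungs were taken 6 days later or once the tumour was near 50 mm3. All lungs were perfused with PBS to clear the vessels of blood, and 3 µg of total RNA entered labelling. Each tumour class was 1 cell line, and the labels give no age. They also do not state whether every sample is a separate mouse, so each p-value reflects sample-to-sample spread, part of which may be technical. Median intensities were between 113.2 and 116.1 on the 14 arrays. Surfactant protein Sftpc and the alveolar type 1 cell gene Ager had log2 levels of 12.60 or more in every sample, so the defining markers of lung were present. The arrays of 67NR replicates 1 and 3 stood apart in 8 genes of the circadian clock's output, whose summed intensity was 2645 and 3843 there, against 9661 to 15698 in the other 67NR lungs, 13414 to 17430 in 4T1 lungs and 12782 to 18327 in Normal lungs. The sums of 67NR replicates 2 and 4, at 10579 and 9661, also lay below those of every 4T1 and Normal lung. All 8 genes were lower in 67NR against Normal lungs at an unadjusted p under 0.05 in limma, where 9.13% of all genes tested differed in either direction. This list was chosen with earlier results of these data known. Of the 8, 0 passed the adjusted threshold, where 0% of all genes tested passed. Leaving 67NR replicates 1 and 3 out is an alternative chosen after seeing the data, and the part of the clock genes in the results was not tested. In whole lung, fewer cells of a type and less RNA per cell cannot be told apart.

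Collagens are secreted proteins whose chains wind around each other into a stiff helix rich in glycine and proline. Fibrillar types I, III and V form the rope-like fibrils of airway walls, vessel walls and pleura, and are made mainly by fibroblasts. Type IV collagen forms the sheet-like network under epithelium and endothelium, where alveolar and capillary basement membranes lie close together. Type VI forms beaded filaments, and the remaining chains decorate fibrils, span cell membranes or sit in basement membrane zones. Chains are hydroxylated and folded in the endoplasmic reticulum, trimmed outside the cell and crosslinked by enzymes of the lysyl oxidase family. Deposition and crosslinking of collagen in the lung before tumour cells arrive is one of the changes studied under the name premetastatic niche.

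Promoter windows of 300 bases (250 before the annotated start and 50 after it) were available from RefSeq on build GRCm38.p6 for 33 of the 42 genes. The windows of Col4a1 and Col4a2 are shown because these neighbours are transcribed away from each other and varied together across arrays, and that of Col1a2 because it encodes a chain of type I collagen, whose paired chain gene varied with it. Col4a3 and Col4a4 are also neighbours transcribed away from each other, and their correlation across arrays did not pass the threshold (r = 0.32). Capitals mark matches on either strand to a CCAAT box (CCAAT, or ATTGG on the other strand) or a GC box (GGGCGG, or CCGCCC on the other strand). TATAAA was also searched on both strands and was not among the letters of these windows. The windows lie at chr8:11312777-11313076 on the minus strand for Col4a1, chr8:11312555-11312854 on the plus strand for Col4a2 and chr6:4505368-4505667 on the plus strand for Col1a2.
Col4a1: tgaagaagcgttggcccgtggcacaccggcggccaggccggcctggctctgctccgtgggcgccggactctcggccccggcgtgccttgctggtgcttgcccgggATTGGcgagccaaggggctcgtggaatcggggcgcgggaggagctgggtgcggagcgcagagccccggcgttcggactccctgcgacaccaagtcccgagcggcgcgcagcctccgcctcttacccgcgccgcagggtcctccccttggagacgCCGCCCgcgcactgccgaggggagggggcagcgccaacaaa
Col4a2: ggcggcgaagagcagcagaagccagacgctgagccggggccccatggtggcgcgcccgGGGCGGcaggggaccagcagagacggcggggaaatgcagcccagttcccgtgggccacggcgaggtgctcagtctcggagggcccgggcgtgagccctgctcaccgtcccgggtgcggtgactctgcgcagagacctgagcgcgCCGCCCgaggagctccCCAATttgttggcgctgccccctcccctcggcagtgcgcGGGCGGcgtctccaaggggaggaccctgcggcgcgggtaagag
Col1a2: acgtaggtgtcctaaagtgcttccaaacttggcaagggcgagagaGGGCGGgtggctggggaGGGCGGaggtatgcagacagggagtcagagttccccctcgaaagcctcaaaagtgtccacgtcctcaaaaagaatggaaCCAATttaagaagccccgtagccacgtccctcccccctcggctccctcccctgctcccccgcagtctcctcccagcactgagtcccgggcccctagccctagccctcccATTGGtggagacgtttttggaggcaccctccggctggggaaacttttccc
The Col4a1 and Col4a2 windows shared 78 bases (chr8:11312777-11312854), and their annotated starts were 21 bases apart, with the first bases of both transcripts overlapping. A GC box at chr8:11312812-11312817 stood in both windows. It lay after both starts, from position 10 of the Col4a1 transcript and position 8 of the Col4a2 transcript. The 33 collagen genes found had 36 windows, so windows and not genes were counted, and overlapping windows such as those of Col4a1 and Col4a2 counted separately. Of these 36 windows, 22 (61.1%) held a GC box, against 35.7% of all 32851 mouse promoter windows of that length. A CCAAT box stood in 36.1% of the collagen windows against 37.4% of all windows, and TATAAA in 13.9% against 13.6%. These are matches of letters only.

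Of the 42 genes, 25 lay among the 10916 genes of the upper 60% of mean level (mean log2 level above 7.35), to which limma was applied, and 17 lay below. The 25 comprised 7 fibrillar, 5 basement membrane and 13 other chain genes. In 4T1 against Normal lungs 0 of the 25 passed an adjusted p under 0.05 in limma, where 0.412% of all genes tested passed. In 67NR against Normal lungs 0 of the 25 passed, where 0% of all genes passed. In 4T1 against 67NR lungs 0 of the 25 passed, where 0.76% of all genes passed. At an unadjusted p under 0.05 in limma, 4 of the 25 differed in 4T1 against Normal lungs (6.56% of all genes), 1 in 67NR against Normal lungs (9.13%) and 4 in 4T1 against 67NR lungs (12.4%). Levels of 4T1 and Normal lungs overlapped for all 25 genes, so 0 of 25 stood apart, where 2.72% of all genes did in either direction. The 4T1 and 67NR comparisons with Normal lungs share the Normal arrays.

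For the chosen probe sets of the 25 genes, the size of a difference was bounded gene by gene. These intervals are not joint over the genes, and they do not cover other probe sets or the 17 genes below the filter. In 4T1 against Normal lungs the 95% interval of the log2 change lay within 0.5 of 0 for all 25 genes, as it did for 93.6% of all genes tested. In 67NR against Normal lungs it did so for 24 of 25 (94.4% of all genes), and in 4T1 against 67NR lungs for 24 of 25 (91.8% of all genes). The exception in both was Col9a1, a chain of the fibril-associated type IX collagen, whose interval was -0.56 to 0.14 in 67NR against Normal lungs and -0.11 to 0.63 in 4T1 against 67NR lungs. Without 67NR replicates 1 and 3 its log2 change was 0.0045 in 67NR against Normal lungs and 0.04 in 4T1 against 67NR lungs, against -0.21 and 0.26 with them. The median log2 change over the 25 genes was 0.04 in 4T1 against Normal lungs, -0.0018 in 67NR against Normal lungs and 0.06 in 4T1 against 67NR lungs, beside medians of -0.00077, -0.0010 and -0.00079 over all genes. The log2 change was above 0 for 19 of the 25 in 4T1 against Normal lungs (49.5% of all genes), for 11 in 67NR against Normal lungs (49.6%) and for 17 in 4T1 against 67NR lungs (49.6%), and since these genes varied together from array to array, such counts were not read as independent.

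**Figure D1:**
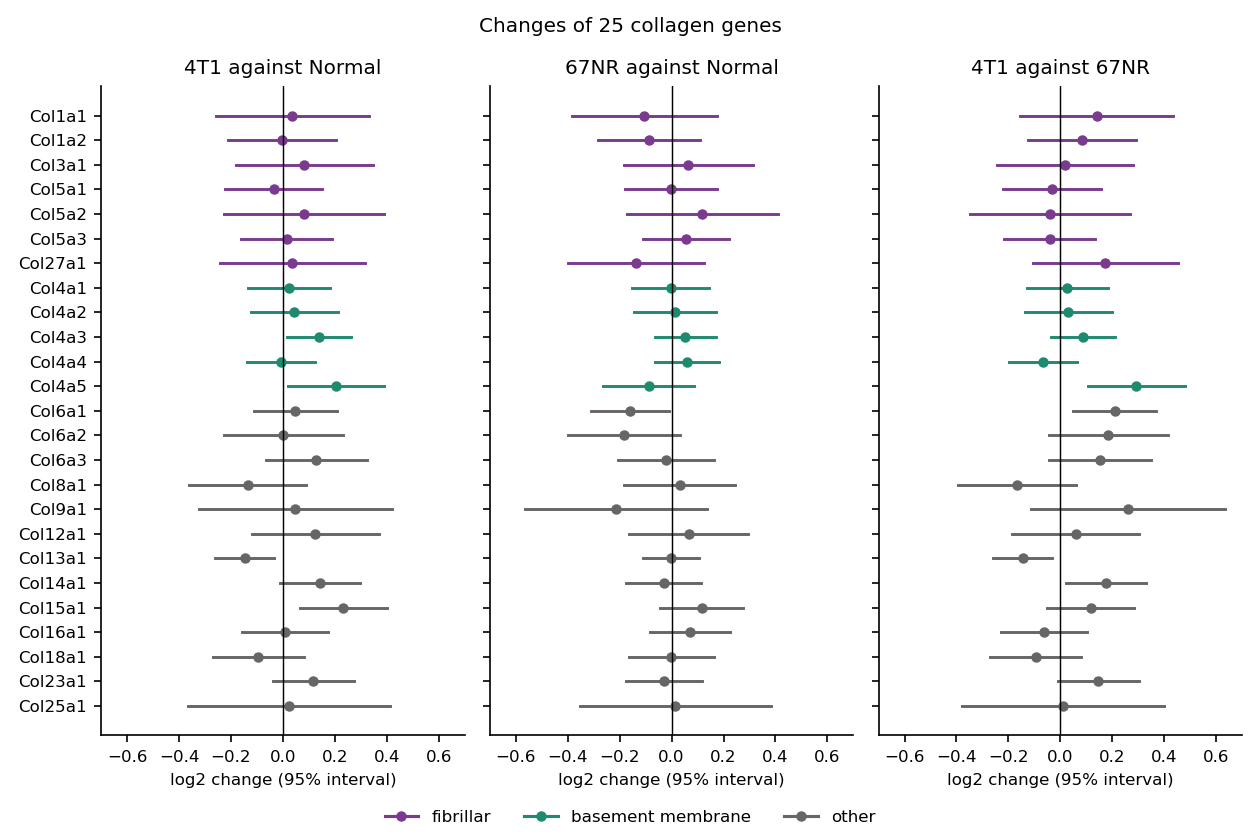
Log2 change (x axis, log2(intensity + 16) scale) of the 25 collagen genes tested, with points for the estimate and lines for the 95% interval, coloured by class, in 4T1 against Normal, 67NR against Normal and 4T1 against 67NR lungs. No gene passed the adjusted threshold, and the interval reaching farthest from 0 was that of Col9a1 in 4T1 against 67NR lungs, up to 0.63.

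No fibrillar gene passed the test in any comparison. Col1a1, the gene of the main chain of type I collagen, had log2 levels of 10.90, 11.11, 10.75 and 11.22 in 4T1 lungs, 11.02, 10.90, 10.90, 10.63 and 10.82 in 67NR lungs, and 11.05, 10.65, 10.65, 11.28 and 11.18 in Normal lungs. The groups overlapped, and Normal lungs held both a level near the lowest and the highest of all 14. Its log2 change was 0.04 (SE 0.14) in 4T1 against Normal lungs, -0.11 (SE 0.13) in 67NR against Normal lungs and 0.14 (SE 0.14) in 4T1 against 67NR lungs. Its partner chain Col1a2 had levels of 12.11, 12.27, 11.90 and 12.31 in 4T1 lungs, 12.18, 12.23, 12.09, 11.81 and 12.01 in 67NR lungs, and 12.30, 12.10, 12.00, 12.23 and 12.13 in Normal lungs. The groups overlapped again, and the lowest level in each tumour group was that of 4T1 replicate 3 and 67NR replicate 4. Col3a1, the chain of type III collagen, had levels of 12.76, 12.74, 12.47 and 12.91 in 4T1 lungs, 12.89, 12.95, 12.64, 12.43 and 12.61 in 67NR lungs, and 12.88, 12.42, 12.46, 12.80 and 12.63 in Normal lungs, with the same 2 arrays lowest in their groups.

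Over all 7 fibrillar genes tested (Col1a1, Col1a2, Col3a1, Col5a1, Col5a2 and Col5a3 of types I, III and V, and Col27a1), log2 changes ran from -0.04 to 0.08 in 4T1 against Normal lungs, with a median of 0.04. They ran from -0.14 to 0.12 in 67NR against Normal lungs, with a median of -0.0032, and from -0.04 to 0.17 in 4T1 against 67NR lungs, with a median of 0.02. With 1 array left out these medians ran from -0.02 to 0.08, -0.06 to 0.05 and -0.05 to 0.10, so none kept its sign throughout. The smallest adjusted p in limma was 0.975, 0.784 and 0.638 in that order, and 0 of the 7 had an unadjusted p under 0.05 in each. The intervals of the 7 genes together spanned -0.26 to 0.39, -0.40 to 0.41 and -0.35 to 0.45. The largest of these changes was that of Col27a1, a fibrillar chain of cartilage and other tissues, whose log2 change of 0.17 in 4T1 against 67NR lungs had an SE of 0.13. The other probe set of Col1a1, of lower intensity, gave log2 changes of 0.16 in 4T1 against Normal lungs, 0.29 in 67NR against Normal lungs and -0.14 in 4T1 against 67NR lungs, each with an SE of 0.23 or more, so its sign differed from that of the chosen set in the last 2.

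**Figure D2:**
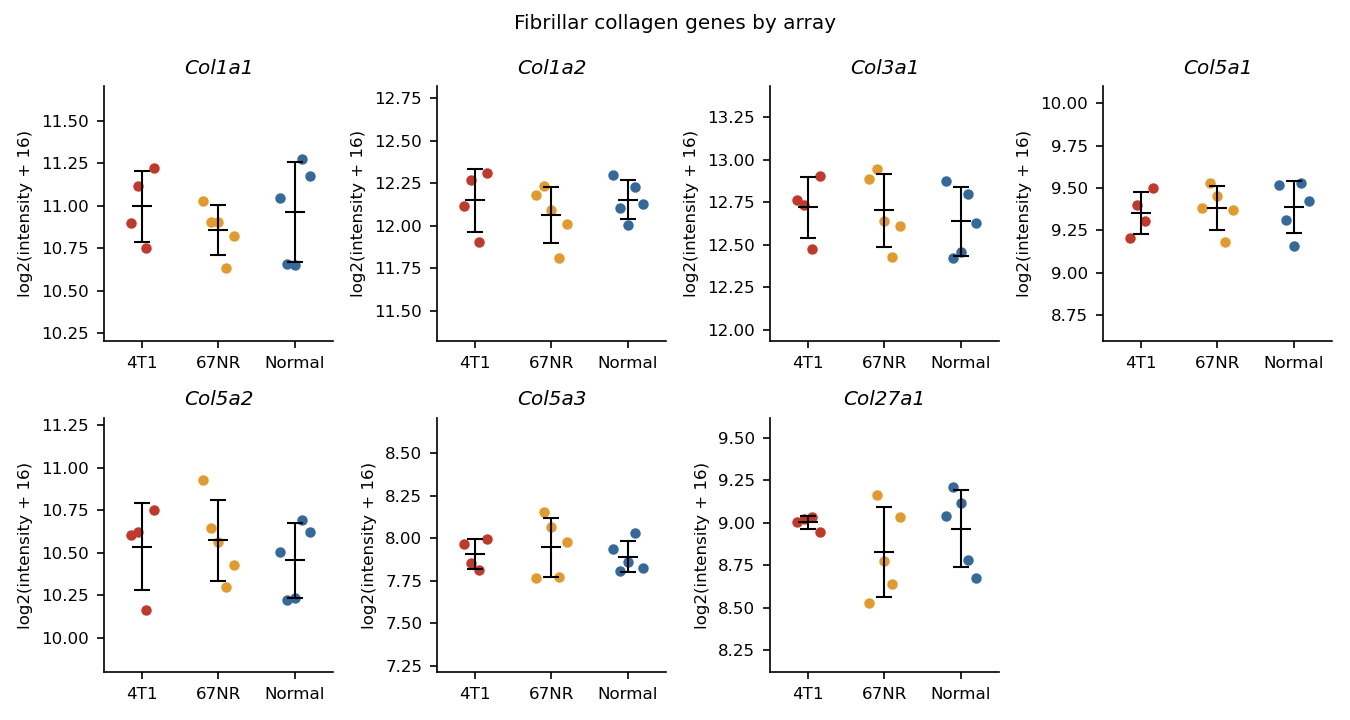
Log2(intensity + 16) level (y axis) of the 7 fibrillar collagen genes tested in each array, with 4T1, 67NR and Normal groups side by side, coloured points for arrays, a black dash for the group mean and a bar for its SD. The groups overlap in every panel, and 4T1 replicate 3 and 67NR replicate 4 are each the lowest of their group for 5 of the 7 genes.

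No type IV collagen gene passed the test in any comparison, and Col4a5 had the smallest p. Col4a1, which with Col4a2 makes the main network of basement membranes, had levels of 13.00, 13.06, 12.81 and 13.14 in 4T1 lungs, 13.03, 13.06, 12.92, 12.81 and 13.05 in 67NR lungs, and 13.09, 12.97, 12.86, 13.04 and 12.93 in Normal lungs. Col4a2 had levels of 12.63, 12.73, 12.41 and 12.76 in 4T1 lungs, 12.65, 12.66, 12.47, 12.48 and 12.75 in 67NR lungs, and 12.61, 12.54, 12.55, 12.73 and 12.51 in Normal lungs. Groups overlapped for both genes, and the log2 changes of both were between -0.0029 and 0.04 in the 3 comparisons. Col4a3, a chain of the network of the alveolar and glomerular basement membranes, had levels of 10.31, 10.41, 10.23 and 10.49 in 4T1 lungs, 10.28, 10.26, 10.24, 10.27 and 10.31 in 67NR lungs, and 10.17, 10.16, 10.15, 10.33 and 10.30 in Normal lungs. Its log2 change in 4T1 against Normal lungs was 0.14 (SE 0.058, unadjusted p = 0.0284, adjusted p = 0.670 in limma), and its other probe set gave 0.15. Col4a4, which pairs with Col4a3 in that network, had log2 changes of -0.0064 in 4T1 against Normal lungs, 0.06 in 67NR against Normal lungs and -0.07 in 4T1 against 67NR lungs. Col4a6, the remaining member of the class, lay below the level filter.

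Col4a5, the third chain of the Col4a3 and Col4a4 network, had levels of 11.94, 12.00, 11.61 and 12.08 in 4T1 lungs, 11.60, 11.64, 11.61, 11.54 and 11.68 in 67NR lungs, and 11.56, 11.71, 11.59, 11.86 and 11.79 in Normal lungs. Of the 4 4T1 lungs, 3 lay above every 67NR lung, and the remaining one, replicate 3, lay among them. Its log2 change in 4T1 against 67NR lungs was 0.29 (SE 0.087, 95% interval 0.11 to 0.48, adjusted p = 0.154 in limma), and in 4T1 against Normal lungs 0.20 (SE 0.087, unadjusted p = 0.0333). Without 4T1 replicate 3 the log2 change in 4T1 against 67NR lungs was 0.39 and passed the threshold (adjusted p = 0.0198 in limma), so whether Col4a5 passed turned on 1 array. The other probe set of Col4a5 had a log2 change of 0.05 (SE 0.07) in 4T1 against 67NR lungs and -0.01 (SE 0.07) in 4T1 against Normal lungs, so the difference appeared in 1 of the 2 probe sets. Over the 5 genes of the class, the median log2 change was 0.04 in 4T1 against Normal lungs, 0.01 in 67NR against Normal lungs and 0.03 in 4T1 against 67NR lungs. With 1 array left out these medians ran from 0.0029 to 0.12, -0.02 to 0.05 and -0.01 to 0.10. The smallest adjusted p in limma was 0.670 in 4T1 against Normal lungs, 0.793 in 67NR against Normal lungs and 0.154 in 4T1 against 67NR lungs.

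**Figure D3:**
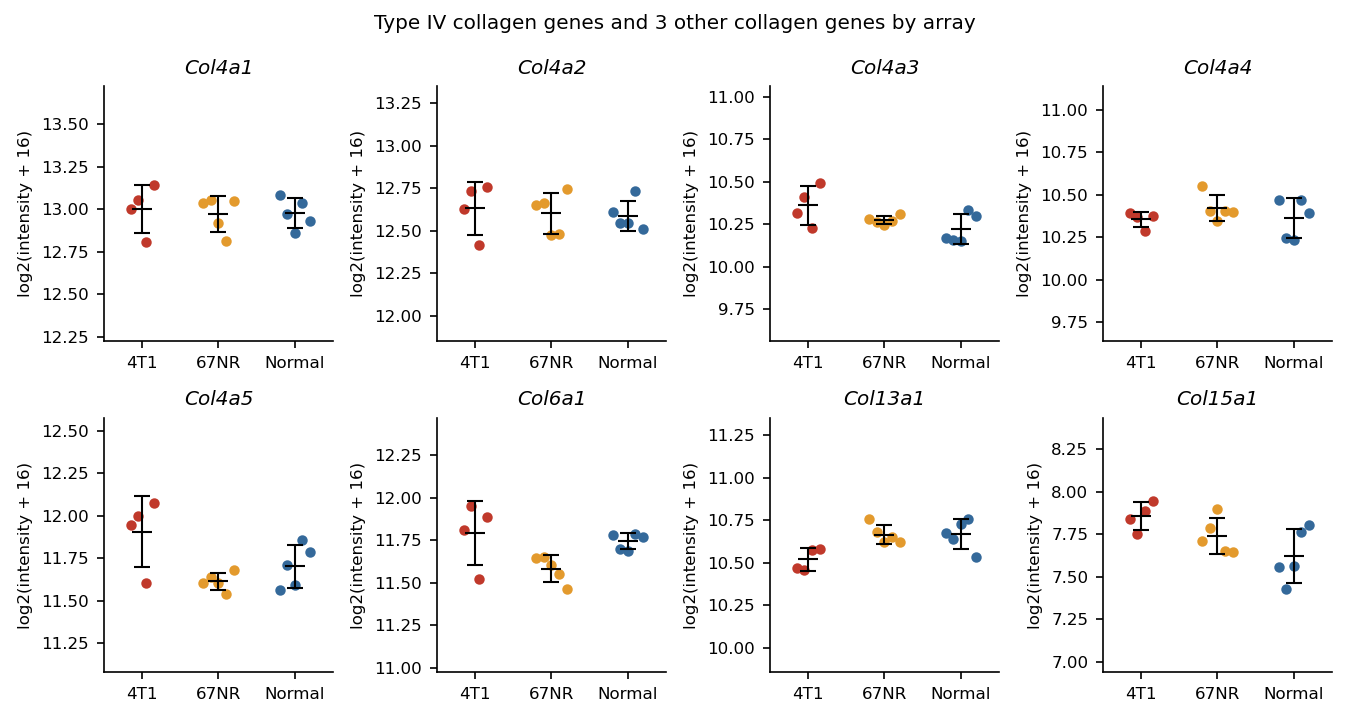
Log2(intensity + 16) level (y axis) in each array of the 5 basement membrane collagen genes tested and of Col6a1, Col13a1 and Col15a1, with 4T1, 67NR and Normal groups side by side, coloured points for arrays, a black dash for the group mean and a bar for its SD. Col4a5 levels are 11.94 or more in 3 of the 4 4T1 lungs and 11.68 or less in the 67NR lungs.

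Of the 13 other chain genes, Col6a1, a chain of the beaded filaments of type VI collagen, had levels of 11.81, 11.95, 11.52 and 11.89 in 4T1 lungs, 11.65, 11.65, 11.60, 11.55 and 11.46 in 67NR lungs, and 11.78, 11.70, 11.69, 11.79 and 11.77 in Normal lungs. Every 67NR lung lay below every Normal lung, and it was the 1 gene of the 25 whose groups did not overlap there, where 1.65% of all genes tested had groups that did not overlap in either direction. Its log2 change was -0.16 (SE 0.07) in 67NR against Normal lungs (adjusted p = 0.519 in limma) and 0.21 (SE 0.074) in 4T1 against 67NR lungs (adjusted p = 0.248 in limma). Without 4T1 replicate 3 the log2 change in 4T1 against 67NR lungs was 0.30 (adjusted p = 0.0287 in limma). Its partner Col6a2 had log2 changes of -0.18 in 67NR against Normal lungs and 0.18 in 4T1 against 67NR lungs, and Col6a3 had -0.02 and 0.15 (SE 0.07 to 0.11 for the 3 genes).

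Col13a1, a transmembrane collagen, had levels of 10.47, 10.46, 10.58 and 10.58 in 4T1 lungs, 10.76, 10.68, 10.62, 10.65 and 10.62 in 67NR lungs, and 10.68, 10.64, 10.73, 10.76 and 10.54 in Normal lungs. Every 4T1 lung lay below every 67NR lung, and it was the 1 gene of the 25 whose groups did not overlap there, where 4.56% of all genes tested had groups that did not overlap in either direction. Its log2 change was -0.15 (SE 0.053) in 4T1 against 67NR lungs and -0.15 (SE 0.053) in 4T1 against Normal lungs (adjusted p = 0.261 and 0.539 in limma). Col15a1, a basement membrane zone collagen that carries a fragment able to restrain vessel growth, had levels of 7.84, 7.75, 7.89 and 7.94 in 4T1 lungs, 7.71, 7.79, 7.90, 7.65 and 7.65 in 67NR lungs, and 7.56, 7.43, 7.56, 7.76 and 7.81 in Normal lungs. The 4T1 and Normal groups overlapped through Normal replicates 4 and 5, and the log2 change of 0.23 (SE 0.079, adjusted p = 0.483 in limma) had the smallest p of the 25 collagen genes in that comparison. Col14a1, which binds fibril surfaces, had a log2 change of 0.18 (SE 0.072, unadjusted p = 0.0286) in 4T1 against 67NR lungs.

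The other chains tested, Col8a1, Col9a1, Col12a1, Col16a1, Col18a1, Col23a1 and Col25a1, had unadjusted p above 0.05 in every comparison. Col12a1 and Col16a1 are fibril-associated chains, Col18a1 is the source of endostatin and Col8a1 is a short chain of vessel walls. The residual SD of the log2 level, which sets how small a difference could be seen, had a median of 0.20 over fibrillar genes, 0.11 over basement membrane genes and 0.13 over the other genes, beside 0.11 over all genes tested. Over the 13 other genes, the median log2 change was 0.05 in 4T1 against Normal lungs, -0.0018 in 67NR against Normal lungs and 0.12 in 4T1 against 67NR lungs, and without 67NR replicates 1 and 3 the last was 0.067. Differences between the classes were not tested. The residual SD was lowest for Col13a1 (0.07) and highest for Col25a1 (0.30), a transmembrane chain.

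Within groups, single arrays were low or high for many collagen genes at once. In 4T1 lungs replicate 3 had the lowest level for 17 of the 25 genes, among them all 5 basement membrane genes, and replicate 4 the highest for 17. In 67NR lungs replicate 4 was lowest for 9 and replicate 2 highest for 10, and in Normal lungs replicate 3 was lowest for 10 and replicate 4 highest for 11. Such counts were not made over all genes tested, so they do not show a pattern particular to collagen genes. The mean deviation of the fibrillar genes from their Normal mean was -0.14 to 0.17 in 4T1 lungs, -0.24 to 0.16 in 67NR lungs and -0.14 to 0.13 in Normal lungs. That of all genes tested stayed between -0.02 and 0.02. A mean over so many genes on arrays of a common scale varies less than a mean over few genes. These spreads therefore do not show that collagen genes vary more than others. For the basement membrane genes the ranges were -0.10 to 0.20, -0.07 to 0.07 and -0.09 to 0.12. The SD between arrays of the mean of the 13 other genes was 0.08 in 4T1 lungs, 0.05 in 67NR lungs and 0.0069 in Normal lungs.

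The 4T1 replicate 3 array also stood out in markers of fat. The summed intensity of 7 fat markers was 10842 there and 3620, 4338 and 6540 in the other 4T1 lungs, against 2458 to 6586 in 67NR lungs and 2554 to 5739 in Normal lungs, and the level of Sftpc was the lowest of the 4T1 lungs at 12.60. Its log2 ratio of 3' to 5' Gapdh signal, which rises as RNA degrades, was -0.43, within the 4T1 range of -0.50 to -0.39. Markers of fibroblasts summed to 23845 to 25604 in 4T1 lungs, 22644 to 26599 in 67NR lungs and 22896 to 25642 in Normal lungs. In 4T1 against Normal, 67NR against Normal and 4T1 against 67NR lungs 0 of the 12 markers passed limma, where 0.412%, 0% and 0.76% of all genes tested did. At an unadjusted p under 0.05 the counts were 0, 2 and 1 of 12 in that order, where 6.56%, 9.13% and 12.4% of all genes tested differed. The part of these markers in the collagen values was not tested.

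**Figure D4:**
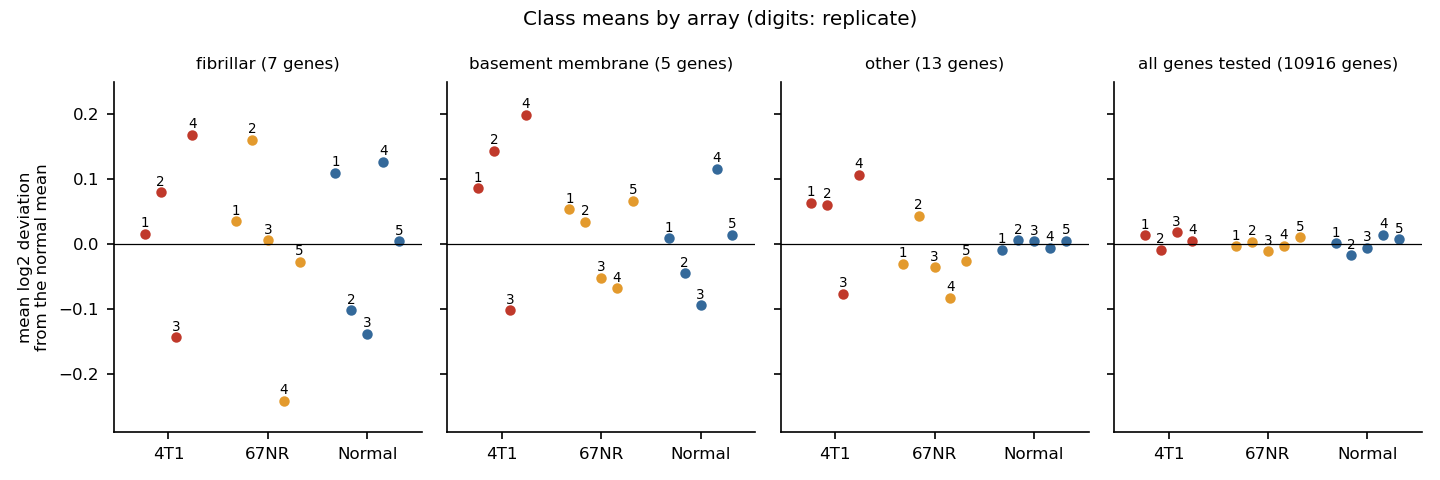
Mean log2 deviation from the Normal mean (y axis) in each array, for the 7 fibrillar, 5 basement membrane and 13 other collagen genes tested and for all 10916 genes tested, with 4T1, 67NR and Normal groups side by side and the replicate number above each point. Collagen classes spread from -0.24 to 0.20, and all genes tested stayed within 0.02 of 0, where a mean over many more genes varies less.

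Covariation of collagen genes was measured in 4 pairs across the 14 arrays. The adjusted p given with each pair is that of Pearson r. Col4a1 with Col4a2 had Pearson r = 0.87 (Spearman rho 0.83, adjusted p of r = 0.0002 over 4 pairs, permutation test with 100000 resamples). The adjusted permutation p of rho was 0.0012, 0.0012, 0.00935 and 0.287 for the 4 pairs in the order given here. Without the 2 arrays farthest from the median of Col4a1 r was 0.80, and with group means removed it was 0.87. Col1a1 with Col1a2 had r = 0.78 (rho 0.82, adjusted permutation p = 0.00216), 0.74 without 2 arrays and 0.76 with group means removed. Col1a1 with Col3a1 had r = 0.74 (rho 0.70, adjusted permutation p = 0.00483), 0.71 without 2 arrays and 0.80 with group means removed. Col4a3 with Col4a4 had r = 0.32 (rho 0.31, adjusted permutation p = 0.259), 0.59 without 2 arrays and 0.49 with group means removed. The first 3 pairs thus passed the threshold of 0.05 and Col4a3 with Col4a4 did not. Both genes of a pair were read from the same arrays.

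**Figure D5:**
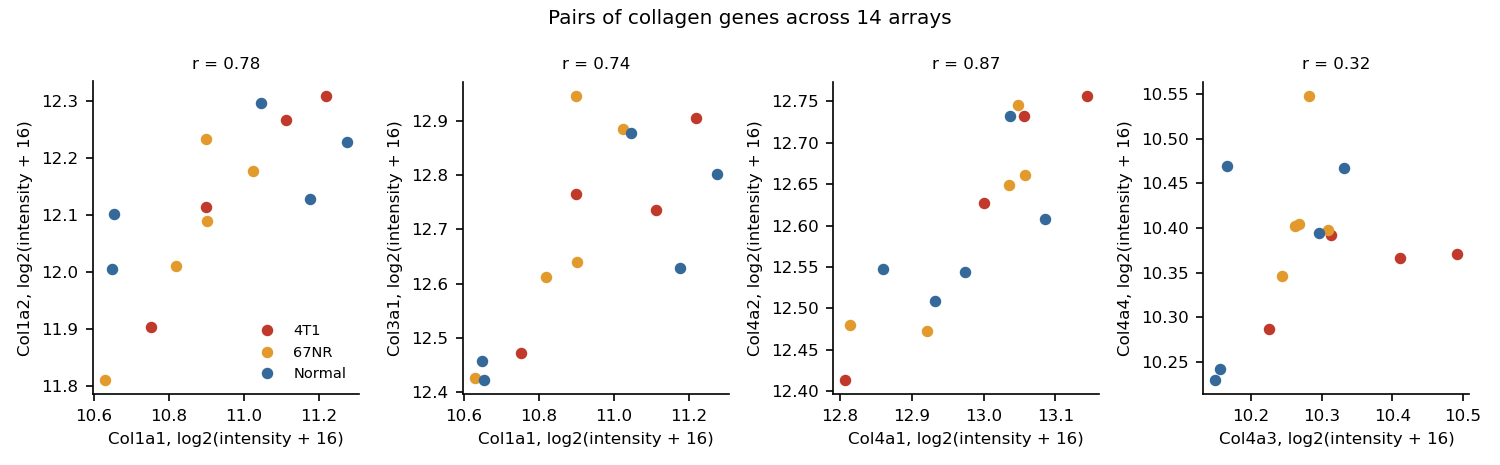
Log2(intensity + 16) level of 1 gene of a pair (x axis) against the other (y axis), 1 point per array, for Col1a1 with Col1a2, Col1a1 with Col3a1, Col4a1 with Col4a2 and Col4a3 with Col4a4, coloured by 4T1, 67NR and Normal group. The groups lie among each other in each panel, and r is 0.78, 0.74, 0.87 and 0.32 in that order.

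The 17 genes below the level filter had mean log2 levels of 4.24 to 6.91, where a level of 4 is the offset alone. They were Col2a1, Col11a1, Col11a2 and Col24a1 of the fibrillar class, Col4a6, and Col6a4, Col6a5, Col7a1, Col8a2, Col9a2, Col9a3, Col10a1, Col17a1, Col19a1, Col20a1, Col22a1 and Col26a1. In a fit of all genes without the filter 0 of the 17 passed limma in any comparison, where 0.275% of all 18194 genes passed in 4T1 against Normal, 0.0055% in 67NR against Normal and 0.335% in 4T1 against 67NR lungs. At an unadjusted p under 0.05 the counts were 1, 0 and 1 in that order, where 5.86%, 7.16% and 9.3% of all genes differed. That gene was Col11a2, a minor fibrillar chain of cartilage, with levels of 4.67, 4.69, 6.63 and 6.03 in 4T1 lungs, 6.60, 6.77, 6.13, 6.57 and 6.78 in 67NR lungs, and 6.78, 5.70, 7.06, 6.57 and 6.33 in Normal lungs. In all, 2 of the 4 4T1 lungs lay below all others, and the log2 change was -0.98 in 4T1 against Normal lungs (adjusted p = 0.750 in limma) and -1.06 in 4T1 against 67NR lungs (adjusted p = 0.390 in limma). No detection calls were used here, so these levels could not be told from background. The 11 markers of cartilage, which a dissected airway can bring along, summed to 2707 to 2937 in 4T1 lungs, 2597 to 2794 in 67NR lungs and 2351 to 2737 in Normal lungs. Most of each sum was the intensity of Cytl1, so the sums say little about the other markers. Only Cytl1, at levels of 10.71 to 11.14, and Chad, at 6.62 to 8.04, passed the level filter, while Acan lay at 6.86 to 7.46, Comp at 6.80 to 7.58, Matn1 at 4.88 to 5.62 and Cnmd at 4.21 to 4.31. Without the filter 0 of the 11 passed limma in any comparison, and 2, 1 and 2 were higher at an unadjusted p under 0.05 in 4T1 against Normal, 67NR against Normal and 4T1 against 67NR lungs. Ucma, a secreted cartilage protein, was higher in every 4T1 lung than in every Normal lung, with a log2 change of 0.73 (adjusted p = 0.563 in limma without the filter). Among genes above the filter, 2.72% had groups that did not overlap there in either direction. Ucma averaged 6.04 in 4T1 and 5.31 in Normal lungs, below the filter. The median log2 change of the 11 markers in that comparison was 0.12, and those of Acan, Cnmd, Matn1 and Matn3 were below 0. The part of these markers in the collagen values was not tested.

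Genes that make, trim, crosslink and bind collagen were described next. In 4T1 against Normal, 67NR against Normal and 4T1 against 67NR lungs, 0.412%, 0% and 0.76% of all genes tested passed limma. Of 18 synthesis genes, 14 of processing and crosslinking, 14 basement membrane partners and 7 receptors tested, 0 passed in any comparison. Their unadjusted counts were 0, 1, 0 and 0 in 4T1 against Normal lungs, 4, 2, 1 and 0 in 67NR against Normal lungs, and 1, 2, 0 and 0 in 4T1 against 67NR lungs, where 6.56%, 9.13% and 12.4% of all genes tested differed. The median log2 changes of these 4 lists were -0.0084, 0.03, 0.05 and -0.0086 in 4T1 against Normal lungs, 0.02, -0.02, -0.0034 and 0.04 in 67NR against Normal lungs, and -0.05, 0.0073, 0.06 and -0.05 in 4T1 against 67NR lungs, beside medians of all genes near 0. Lox, which crosslinks collagen, had levels of 8.73, 9.30, 9.21 and 9.28 in 4T1 lungs, 10.05, 9.34, 9.84, 9.78 and 9.52 in 67NR lungs, and 8.64, 8.84, 8.95, 9.32 and 8.86 in Normal lungs. Every 67NR lung lay above every Normal and 4T1 lung, the nearest levels being 9.34 in a 67NR lung and 9.32 in a Normal lung. Among all genes tested, 1.65% and 4.56% had groups that did not overlap in 67NR against Normal and 4T1 against 67NR lungs, in either direction. The log2 change of Lox was 0.78 (SE 0.15, adjusted p = 0.207 in limma) in 67NR against Normal lungs and -0.58 (SE 0.16, adjusted p = 0.129 in limma) in 4T1 against 67NR lungs. Over the mean of its probe sets the log2 change of Lox in 67NR against Normal lungs was 0.50 (adjusted p = 0.243 in limma). The levels of 67NR replicates 1 and 3 were the highest of the 14, and without these arrays the log2 change of Lox was 0.62 in 67NR against Normal lungs (adjusted p = 0.185 in limma) and -0.42 in 4T1 against 67NR lungs (adjusted p = 0.313 in limma). Loxl1, another crosslinker, named after its values were seen, had log2 changes of -0.23 in 4T1 against Normal lungs, 0.30 in 67NR against Normal lungs and -0.53 in 4T1 against 67NR lungs (adjusted p = 0.285 in limma for the last). Serpinh1, the collagen chaperone, had log2 changes of 0.29 in 67NR against Normal lungs (adjusted p = 0.382 in limma) and 0.11 in 4T1 against Normal lungs, with levels of 12.30, 12.36, 11.91 and 12.46 in 4T1 lungs, 12.33, 12.61, 12.25, 12.46 and 12.57 in 67NR lungs, and 12.16, 12.25, 12.25, 12.05 and 12.04 in Normal lungs. Without 67NR replicates 1 and 3 Serpinh1 had 0.40 in 67NR against Normal lungs (adjusted p = 0.192 in limma). P4ha1, a prolyl hydroxylase, had 0.36 in 67NR against Normal lungs (adjusted p = 0.531 in limma), and 0.56 without 67NR replicates 1 and 3 (adjusted p = 0.222 in limma).

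Over the 4 lists, log2 changes ran from -0.23 to 0.23 in 4T1 against Normal lungs, -0.16 to 0.78 in 67NR against Normal lungs and -0.58 to 0.36 in 4T1 against 67NR lungs. In 4T1 against Normal lungs the prolyl hydroxylase P4ha2, the lysyl hydroxylase Plod2, the propeptide enhancer Pcolce, the matrix protein Sparc, the receptors Itga1 and Ddr2, the laminin chain Lama4, nidogen Nid1 and perlecan Hspg2 had log2 changes between -0.07 and 0.12. In 67NR against Normal lungs the same genes had log2 changes between -0.08 and 0.21, and in 4T1 against 67NR lungs between -0.21 and 0.13. Without 67NR replicates 1 and 3 P4ha2 lay outside these ranges. It then had 0.46 in 67NR against Normal lungs (adjusted p = 0.367 in limma) and -0.46 in 4T1 against 67NR lungs (adjusted p = 0.322 in limma). Over the mean of their probe sets Lama4 and Nid1 had log2 changes of -0.20 and -0.07 in 4T1 against Normal lungs and of -0.10 and -0.17 in 67NR against Normal lungs, and Ddr2 had -0.02 in 4T1 against 67NR lungs, with none passing limma. The crosslinker Loxl2 and the collagen receptor Itga11 have no value here, for lack of a probe set with that symbol only.

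Of the 10 genes tested on a list of collagen degradation, 7 encode proteases and 3, Timp1, Timp2 and Timp3, encode inhibitors of metalloproteinases. The proteases Mmp8 and Mmp9 rose in 4T1 against Normal lungs, where 0.412% of all genes tested passed, and in 4T1 against 67NR lungs, where 0.76% did. No gene of the list fell past the adjusted threshold, and 1 was lower at an unadjusted p under 0.05 in each of these comparisons. These were Timp2, named after its values were seen, with a log2 change of -0.12 in 4T1 against Normal lungs, and Mmp14 with -0.37 in 4T1 against 67NR lungs. In 67NR against Normal lungs 0 of the 10 passed limma and 0 had an unadjusted p under 0.05. Mmp8, a neutrophil collagenase, had levels of 8.48, 8.24, 8.54 and 8.79 in 4T1 lungs, 7.39, 7.03, 7.20, 7.18 and 7.20 in 67NR lungs, and 7.09, 7.09, 7.35, 7.16 and 7.08 in Normal lungs. Every 4T1 lung lay above every other lung. Among all genes tested, 2.72% and 4.56% had groups that did not overlap in 4T1 against Normal and 4T1 against 67NR lungs, in either direction. The log2 change of Mmp8 was 1.36 in 4T1 against Normal lungs (SE 0.098, adjusted p = 3.48e-06 in limma) and 1.31 in 4T1 against 67NR lungs. Its mean of 7.56 over all arrays passed the level filter of 7.35 only through 4T1 lungs, since it averaged 8.51 there, 7.20 in 67NR lungs and 7.15 in Normal lungs. In the fit without the filter its adjusted p was 2.40e-05 in 4T1 against Normal lungs and 3.03e-05 in 4T1 against 67NR lungs in limma. Mmp9, a gelatinase that degrades denatured collagen and type IV collagen, had levels of 9.83, 9.10, 9.88 and 9.27 in 4T1 lungs, 8.46, 8.28, 7.98, 8.09 and 8.48 in 67NR lungs, and 8.04, 8.31, 8.11, 8.21 and 8.49 in Normal lungs. The log2 change was 1.29 in 4T1 against Normal lungs (SE 0.16, adjusted p = 0.000747 in limma) and 1.26 in 4T1 against 67NR lungs. Neither gene was among those tested when the level filter was raised to the upper 40% of genes. Both genes also stand in the list of neutrophil markers, of which 9 of 11 passed limma upward in 4T1 against Normal lungs and 10 of 11 in 4T1 against 67NR lungs in the fit without the filter, where 0.275% and 0.335% of all genes passed in either direction. The marker list was chosen with earlier results of these data known. The summed intensity of 11 neutrophil markers was 27494 to 37875 in 4T1 lungs, 8316 to 11700 in 67NR lungs and 7052 to 10912 in Normal lungs, and its part in the level of Mmp8 and Mmp9 was not tested. The gelatinase Mmp2, the membrane-bound Mmp14 and the cathepsin Ctsk had log2 changes of 0.05, -0.23 and -0.14 in 4T1 against Normal lungs and did not pass limma in any comparison.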

How the data were processed

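The deposited table held probe set intensities by the authors, judged linear from their range and not from a header or label, with 1 value for each of 45101 probe sets on 14 arrays and no missing value. The sources used here do not give how the authors corrected background, summarised or normalised them. Array medians were already on a common scale, so the deposited intensities were converted to log2(intensity + 16) without normalisation, which understates the change of dim genes. Gene symbols came from the platform annotation of the probe sets, and all 42 collagen genes matched a RefSeq table by Entrez identifier.

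Group means were estimated over the 14 arrays in R 4.3.3 by limma 3.58.1 (lmFit, eBayes, 11 residual degrees of freedom), with two-sided p-values adjusted by the Benjamini-Hochberg method over 10916 genes and a threshold of 0.05. The fit was tested on simulated data. Correlations used permutation tests in SciPy 1.17.1. Arrays, not counts, limit the precision. Arrays of 1 group differed by a root mean square of 0.17 to 0.28 on the log2 scale, so none was a copy.

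Any collagen gene could be named. Of the other lists, genes past the threshold were named, with 17 genes of prior interest whatever their result. Members and lists were chosen with earlier results of these data known. Alternatives covered normalisation, filters, offsets, probe sets, variances, weights, the arrays fitted and a replicate block. Protein sequence features were not analysed here.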

Additional observations from a re-analysis of the deposited data

Results flagged for a closer look

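Col4a4 had a log2 level of 10.55 in 67NR replicate 1, above the 10.35 to 10.40 of the other 67NR lungs, a gap of 0.715 of the group's range. It was 1 of 75 gene and group combinations examined for a sample far from the others, and chance gives about 1 in 20.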

How the results depend on the processing

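In 28 alternatives the collagen genes kept 0 calls in 4T1 against Normal and in 67NR against Normal lungs. In 4T1 against 67NR lungs the count was 0 to 2 with 1 array left out, 2 being Col4a5 and Col6a1 without 4T1 replicate 3, and 0 in the other alternatives. Of 2004 collagen values under alternatives, 119 had another sign than the value reported, all uncalled. Calls on the degradation list were 0 in 4T1 against Normal and in 4T1 against 67NR lungs when only the upper 40% of genes by level was tested, since Mmp8 and Mmp9 were not in it. The median log2 change of the other collagen genes in 4T1 against Normal lungs was 0.016 to 0.13 with 1 array left out, the highest without 4T1 replicate 3, and in 4T1 against 67NR lungs 0.067 without 67NR replicates 1 and 3, an alternative chosen after seeing the data, as was fitting every probe set. The cause was not tested. Counts over all genes were 26 to 67 in 4T1 against Normal lungs (45 reported), 41 to 184 in 4T1 against 67NR lungs (83 reported) and 0 to 11 in 67NR against Normal lungs (0 reported). The replicate numbers did not pair the samples (correlations of deviations from -0.34 to 0.22), and with a replicate block 0 collagen genes were called in each comparison. Between 4 and 5 arrays per group and probe sets with no detection call limit what can be seen.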
